A study of Auxenochlorella pyrenoidosa with 18 samples.

Results

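Genes for small proteins were defined on the predicted gene models of Auxenochlorella pyrenoidosa FACHB-9, a unicellular green alga. A member had a start codon and a stop codon, at least 2 coding segments (a coding segment is the translated stretch of an exon) and a summed coding length under 360 bases, that is under 120 codons. Of 10284 gene models, 440 met this rule (4.28% of all models and 4.94% of the 8901 complete ones). They were compared with the 2564 complete models of 900 to 1500 coding bases, called the longer genes here. The series followed the alga from heterotrophic growth on glucose and urea (0, 24 and 72 h) into light (2, 8 and 24 h), with 3 libraries of whole cells at each of these 6 points. Library values were not analysed here, so no result concerns a time point, and the depth of the libraries is unknown here. The models carry identifiers without gene names or products, so none of these proteins is named here.

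Small proteins are easily missed or wrongly called by gene finders, because a short reading frame carries little coding signal and can arise by chance. In well-studied eukaryotes such proteins include many ribosomal proteins and small subunits of the respiratory and photosynthetic complexes. Where a short frame is split by introns, each splice site adds signal for the gene finder. An intron is described by its phase, which says whether it lies between codons (phase 0) or after the first (phase 1) or the second base (phase 2) of a codon. Introns can also lie in the untranslated part of a transcript, where they leave the protein unchanged.

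The members' coding lengths ran from 201 to 357 bases with a median of 297 and quartiles of 252 and 330 bases. With the stop codon left out, which lay within the coding segments in all 440, the proteins had 66 to 118 residues and a median of 98. No complete model was shorter than 201 bases, so the lower end of the class is the floor of the complete models (incomplete ones went down to 91 bases). Members grew more frequent towards the limit, with 82 under 240 coding bases, 140 from 240 to under 300 and 218 from 300 to under 360. Around the limit itself there were 218 members in the last 60 bases below it and 263 models of the same kind in the first 60 bases above it.

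**Figure D1:**
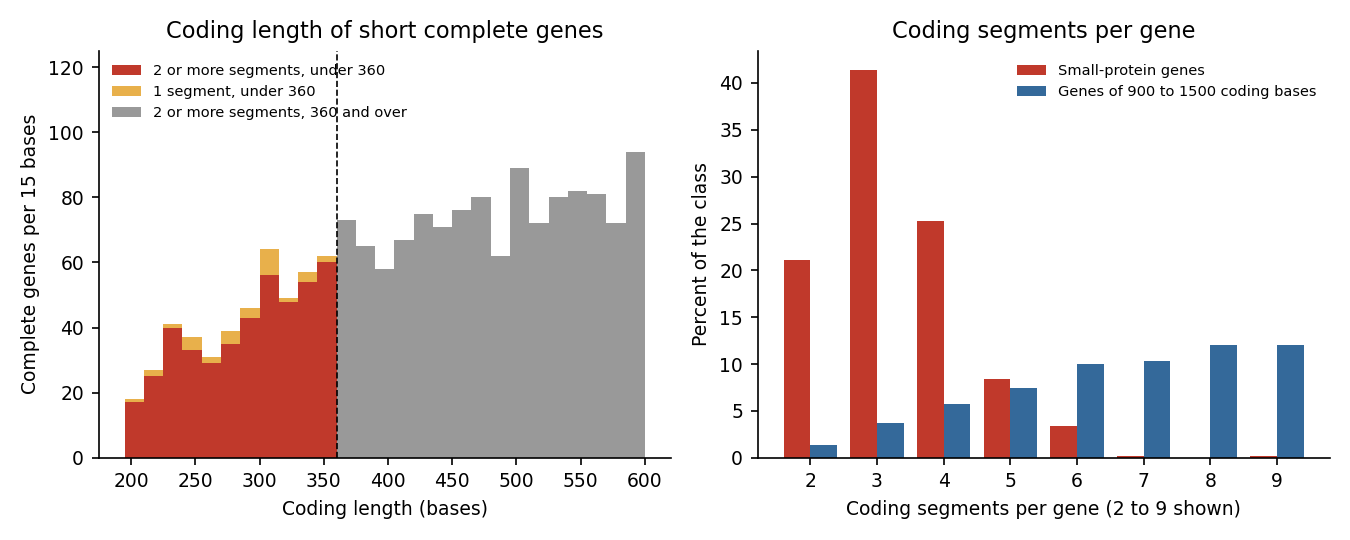
Left: number of complete genes per 15 bases of coding length, up to 600 bases, with the dashed line at the 360-base limit. Genes of 1 segment are drawn only below the limit, and the 218 members in the last 60 bases before it stand beside 263 genes in the 60 bases after it. Right: percent of each class with 2 to 9 coding segments. Within this range small-protein genes peak at 3 segments (41.4%) and the longer genes at 8 (12.1%), with 12.0% at 9. Longer genes have up to 24 segments, and those above 9 are not drawn.

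Among the models with the shortest coding sequence, 4 had 201 coding bases and 5 had 204, of which all of the former and the first of the latter in file order are described. Model g2278 (scaffold00243, bases 410951 to 411684, minus strand) had 66 residues in 3 coding segments, the first of which was the start codon alone. Model g4969 (scaffold00661, bases 132426 to 133240, plus strand) had 66 residues in 2 segments of 100 and 101 bases. Model g6723 (scaffold00992, bases 87237 to 88220, minus strand) had 66 residues in segments of 97, 30 and 74 bases. Both introns of g6723, of 330 and 323 bases, were longer than its whole coding sequence of 201 bases. Models g9149 (scaffold01211, bases 344107 to 345251, plus strand) and g2830 (scaffold00366, bases 240315 to 241609, plus strand) each had 4 segments, in 201 and 204 coding bases. At the other end, 15 members had 357 coding bases, and the first 3 in file order, g892, g1668 and g2097, divided them into 4, 3 and 4 segments. Just outside the limit, 16 models had 360 coding bases, and the first 3, g180, g839 and g936, had 6, 5 and 4 segments.

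The members were finely divided. They had 3.33 ± 1.06 coding segments (SD, n = 440): 93 had 2, 182 had 3, 111 had 4, 37 had 5, 15 had 6 and 1 each had 7 and 9. The median coding segment measured 80 bases, against 108 in the longer genes, and the median internal segment 80 bases against 105. Segment lengths are bounded by the length limit, so these values are descriptions. The first segment was the start codon alone in 14 of 440 members (3.18%, 95% Wilson interval 1.90 to 5.27%) and in 32 of 2553 longer genes with an intron (1.25%, 0.889 to 1.76%). Wilson intervals here count genes, introns or neighbours as independent.

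The members held 1027 coding introns, a density of 8.04 introns per coding kb, and the longer genes held 6.37 per kb. The rule demands an intron, and the lowest density it allows in a member is 2.80 per kb. Intron density was therefore tested without that demand, on all 471 complete genes under 360 coding bases, including 31 with no coding intron. These had 7.55 ± 3.90 introns per coding kb (SD, n = 471 genes) and the longer genes 6.38 ± 2.61 (SD, n = 2564). The difference of 1.17 introns per kb (95% interval 0.870 to 1.47) passed the test (linear model with standard errors clustered by scaffold, n = 471 and n = 2564 genes on 110 scaffolds, adjusted p = 9.98e-11). Coding length, which sets the classes, stays in the denominator of this density, so the test is not independent of the rule. Short genes were the denser on 16 of the 17 scaffolds with at least 10 genes of each class. Genes without any coding intron were also more frequent among the short ones, at 6.58% (95% Wilson interval 4.68 to 9.19%) against 0.429% (0.240 to 0.767%) of the longer genes, a share that was not tested.

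Among complete genes with an intron, density fell along the whole range of coding length. It was 8.51 per kb under 240 coding bases, 8.30 from 240, 7.78 from 300 and 7.15 from 360 to under 600. Beyond that it was 6.68 from 600 to under 900, 6.39 from 900 to 1500 and 5.80 beyond 1500. Demanding an intron sets a lowest possible density that itself falls with coding length, so part of this fall is built in. With introns not demanded, the mean over genes was 7.55 per kb under 360 coding bases, 6.96 from 360 to under 600 and 6.38 from 900 to 1500. Genes with an intron were 440 of 471 complete genes under 360 coding bases and 1197 of 1234 from 360 to under 600. Set against the latter class, with introns not demanded on either side, the short genes still had 0.590 more introns per kb (95% interval 0.261 to 0.918), which passed the test. All tests against genes of 360 to under 600 coding bases were chosen after values had been seen.

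**Figure D2:**
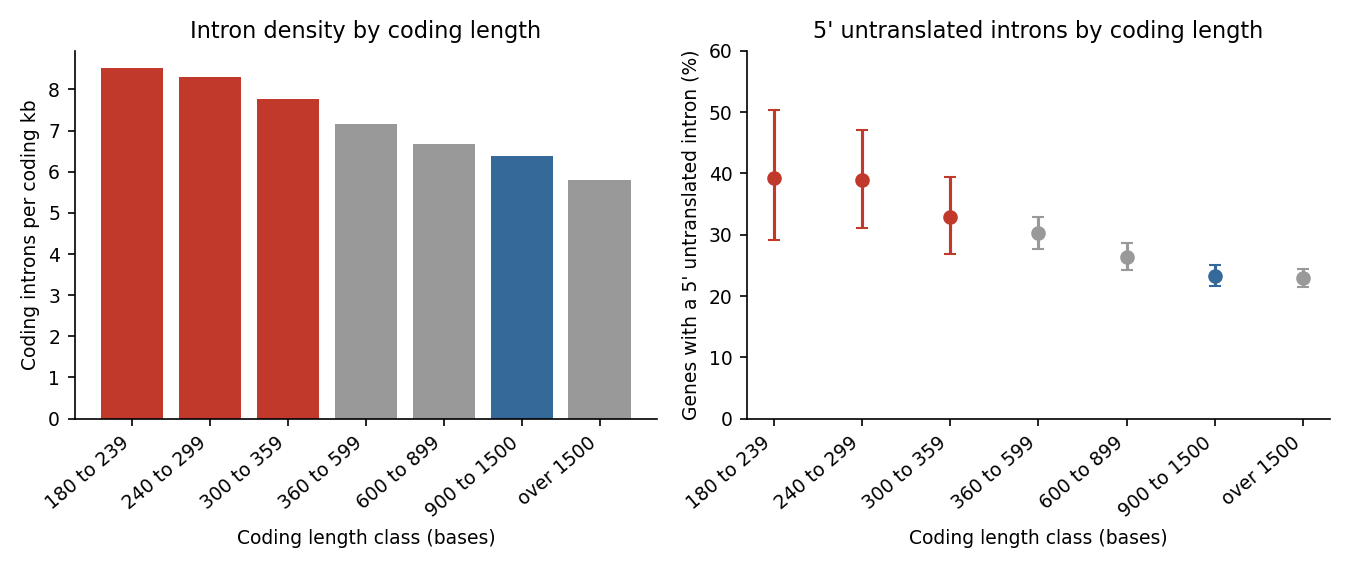
Left: coding introns per coding kb in complete genes with at least 1 coding intron, by coding length. It falls from 8.51 to 5.80 from the shortest to the longest class. The lowest density that 1 intron allows also falls along coding length. Right: percent of genes with a predicted 5' end that have an intron in the 5' untranslated part, with 95% Wilson intervals, in the same genes. It falls from 39.2% to 22.9%. Red marks small-protein genes and blue the longer genes.

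The most divided member was g8185 (scaffold01136, bases 87256 to 89750, plus strand). Its 107 residues were spread over 9 coding segments of 3 to 67 bases, with 8 introns of 127 to 368 bases. Every coding segment and coding intron of g8185 was scored 1, the highest value that AUGUSTUS, the gene finder behind the models, gave in any member. The score of the gene as a whole was 0.08, below the members' median of 0.13. Model g793 (scaffold00064, bases 476203 to 478388, minus strand) had 7 segments for 117 residues, and its segment scores ran from 0.48 to 0.9. Of the 15 members with 6 segments, the first 3 in file order are described. Model g262 (scaffold00012, bases 1372875 to 1375461, plus strand) had segments of 9, 34, 38, 74, 137 and 53 bases and 2 more introns before its start codon. Model g1476 (scaffold00128, bases 607003 to 608626, minus strand) included a segment of 14 bases, and g2216 (scaffold00243, bases 3306 to 4980, plus strand) had 5 coding introns of 126 to 254 bases.

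**Figure D3:**
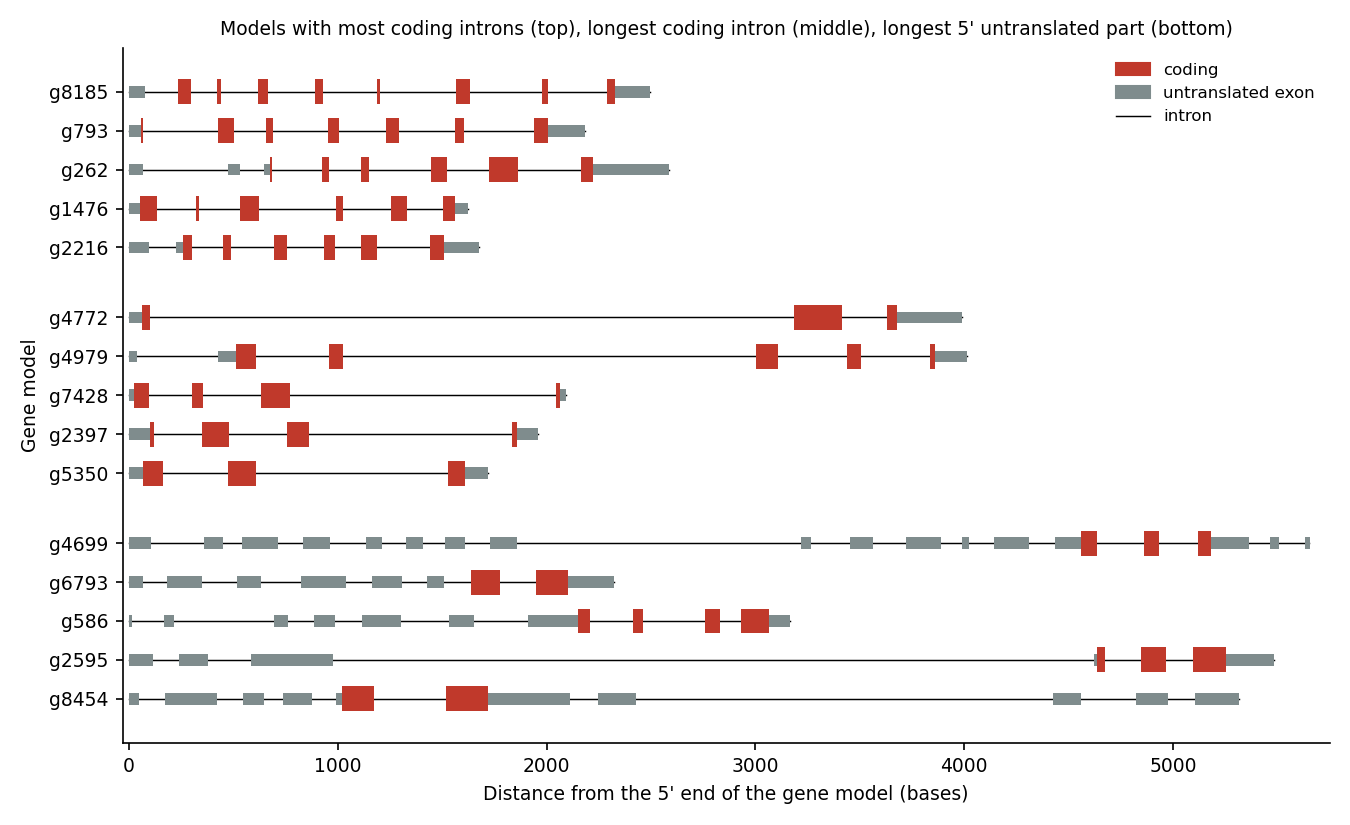
Gene models drawn to scale from their 5' end in bases, with coding segments in red, untranslated exons in grey and introns as lines. The upper models have 6 to 9 coding segments, the middle ones a coding intron of 920 to 3084 bases, and the lower ones 568 to 1537 untranslated bases before the start codon.

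Pooled over all positions, the coding introns of the members were close in length to those of the longer genes. The median was 220 bases (quartiles 170 and 272, n = 1027 introns) against 214.5 bases (170 and 276, n = 19210). The mean difference of -0.04 log2 units (95% interval -0.09 to 0.0039) did not pass the test (adjusted p = 0.105, clustered linear model, n = 1027 and n = 19210 introns). The direction turned when first introns were compared with first introns. The first coding intron had a median of 218 bases in the members (quartiles 164 and 274, n = 440) and 191 bases in the longer genes (144 and 252, n = 2553). This difference of 0.15 log2 units (95% interval 0.08 to 0.22) passed the test. Among complete genes with an intron, the median first intron was 217.5 bases under 240 coding bases, 214.5 from 240 and 221 from 300. It was 203 bases from 360 to under 600, 194 from 600 to under 900, 191 from 900 to 1500 and 186 beyond 1500. First introns were not tested against genes of 360 to under 600 coding bases.

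In the longer genes the first intron was the shorter one, with 191 bases against 218 for the later introns, and in the members the medians were 218 and 221 bases. The first intron exceeded the mean of the later ones, on log2 lengths, in 45.2% of the 347 members and 34.2% of the 2519 longer genes that had more than 1 coding intron. The difference was similar in genes with no intron ahead of the start codon. There the first coding intron had a median of 218 bases in 285 members and 186 bases in 1960 longer genes, a difference of 0.17 log2 units (95% interval 0.08 to 0.25) that passed the test. This restriction was chosen after values had been seen. First introns made up 42.8% of the members' coding introns and 13.3% of those of the longer genes, so the pooled lengths weigh the positions differently.

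**Figure D4:**
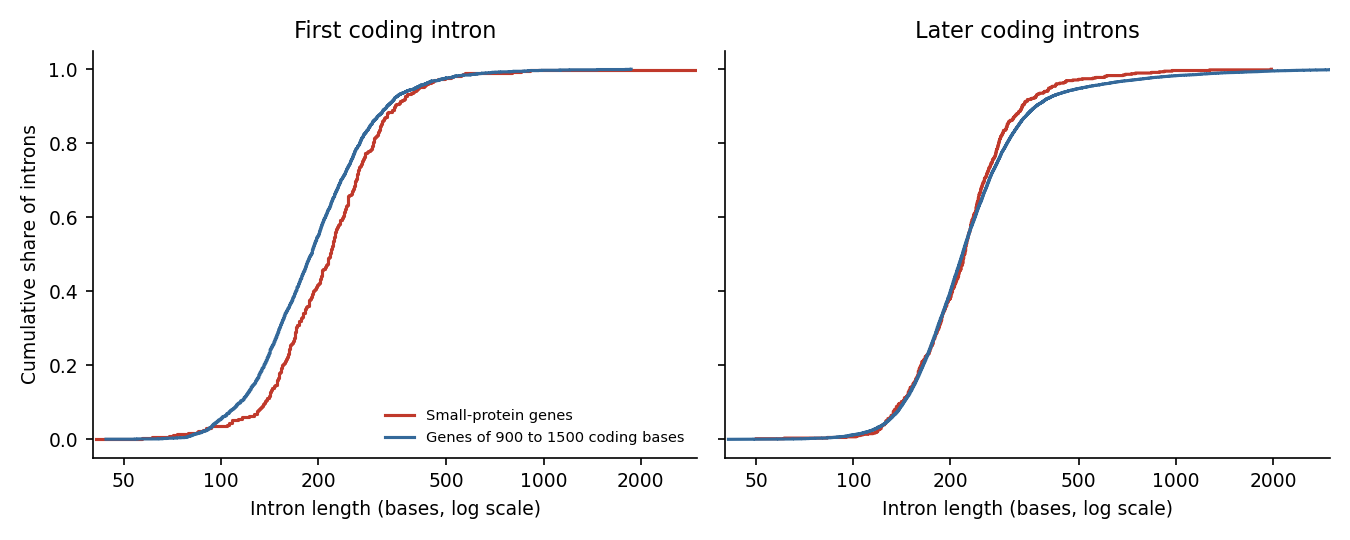
Cumulative share of coding introns by length in bases, on a log axis that ends at 3000 bases, for first coding introns (left) and all later ones (right). The curves of the first introns lie apart, with medians of 218 and 191 bases, and those of the later introns run close together, with medians of 221 and 218 bases.

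Introns of at least 1000 bases were 3 of the members' 1027 (0.292%) and 1.56% of 19210 in the longer genes. These shares pool first and later introns and were not tested. Model g4772 (scaffold00629, bases 1097514 to 1101501, minus strand, 103 residues) had an intron of 3084 bases between bases 1098316 and 1101399, scored 0.87. Model g4979 (scaffold00661, bases 223107 to 227120, minus strand, 117 residues) had one of 1978 bases and g7428 (scaffold01012, bases 769929 to 772022, minus strand, 94 residues) one of 1271 bases. The next were 974 bases in g2397 (scaffold00252, bases 401577 to 403537) and 920 bases in g5350 (scaffold00734, bases 584537 to 586254), and these introns, other than that of g4772, were scored 1. Summed over a gene, the coding introns measured 1.70 times the coding length in the median member and 1.50 times in the median longer gene. This ratio holds the coding length of the rule in its denominator, and only the members were required to have an intron. It was not tested.

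The share of introns in phase 0 did not differ past the threshold, and the shares in phases 1 and 2 were not tested. Of the members' coding introns, 52.5% lay in phase 0 (95% Wilson interval 49.4 to 55.5%), 27.5% in phase 1 (24.8 to 30.3%) and 20.1% in phase 2 (17.7 to 22.6%). In the longer genes the shares were 49.7%, 28.0% and 22.3%. The phase 0 difference of 2.76 percentage points (95% interval -0.169 to 5.70) did not pass the test (adjusted p = 0.105, clustered linear model, n = 1027 and n = 19210 introns). The introns lay nearer the start of the coding sequence in the members, at a mean relative position of 0.457 ± 0.154 (SD, n = 440 genes) against 0.483 ± 0.107 (SD, n = 2553), where 0 is the start and 1 the end. The difference of -0.0266 (95% interval -0.0431 to -0.0102) passed the test (adjusted p = 0.00536, clustered linear model, n = 440 and n = 2553). This call was lost when only genes with a mean segment score of at least 0.95 were used (-0.0215) and against genes of 360 to under 600 coding bases (-0.0165).

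Ahead of the start codon, the members more often had an intron. In the 5' untranslated part one was predicted in 155 of the 431 members with a predicted 5' end, 36.0% (95% Wilson interval 31.6 to 40.6%), and in 23.4% (21.8 to 25.1%) of 2556 longer genes. The difference of 12.5 percentage points (95% interval 8.01 to 17.0) passed the test (adjusted p = 1.50e-06, clustered linear model, n = 431 and n = 2556) and had the same direction on 15 of 17 scaffolds. More than 1 such intron was found in 10.4% of the members (95% Wilson interval 7.90 to 13.7%) and 4.34% of the longer genes (3.62 to 5.20%). Like the density of coding introns, the share fell along coding length among genes with a coding intron. It was 39.2% under 240 coding bases, 38.8% from 240, 32.9% from 300, 30.2% from 360 to under 600, 26.4% from 600 to under 900 and 23.3% from 900 to 1500. Against all complete genes of 360 to under 600 coding bases the difference was 5.98 points (95% interval 0.483 to 11.5) and did not pass the adjusted threshold.

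Within the members, 5' untranslated introns were more frequent where the coding sequence was less divided. They were present in 44.9% of members with 2 coding segments, 40.4% with 3, 28.2% with 4, 24.3% with 5 and 20% with 6. The median coding lengths of these members were 276, 291, 303, 315 and 339 bases in the same order. Segment number and coding length thus rose together and were not separated here. In longer genes of 2 to 6 segments the shares lay between 20.6 and 27.3%. These shares were not tested, and 15 members had 6 segments and 34 longer genes had 2.

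The introns ahead of the start codon had a median of 165 bases in the members (quartiles 121 and 270, n = 243 introns) and 188 bases in the longer genes (126 and 306, n = 781). The spliced 5' untranslated part had a median of 75 bases against 73, and a difference in its length was not detectable (log2 difference 0.06, 95% interval -0.05 to 0.18, adjusted p = 0.344, clustered linear model, n = 431 and n = 2556). In members with such an intron it measured 131 bases in the median and in those without 56, and in the longer genes 133 and 63. The longest was that of g4699 (scaffold00629, bases 643664 to 649317, minus strand), where 1537 untranslated bases and 13 introns preceded a coding sequence for 67 residues. All coding segments of g4699 were scored 0.4. Models g6793 (scaffold00992, bases 508664 to 510987), g586 (scaffold00047, bases 55756 to 58920), g2595 (scaffold00279, bases 621571 to 627054) and g8454 (scaffold01168, bases 290318 to 295632) followed with 791, 777, 662 and 568 bases.

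Behind the stop codon, the untranslated part was longer in the members. Its median was 174.5 bases (quartiles 98 and 292.25, n = 438) against 147 bases (74 and 267, n = 2563) in the longer genes. The log2 difference of 0.20 (95% interval 0.07 to 0.34), a ratio of 1.15 (95% interval 1.05 to 1.26), passed the test (adjusted p = 0.00857, clustered linear model, n = 438 and n = 2563). The call was lost with members under 300 coding bases (log2 difference 0.21) and with mean segment scores of at least 0.95 (0.15). An intron in this part was present in 5.25% of the members and 2.93% of the longer genes, and the difference of 2.32 points (95% interval 0.0375 to 4.61) did not pass the adjusted threshold (adjusted p = 0.0836, clustered linear model, n = 438 and n = 2563). Without scaffold00366, which held the most members, it was 2.73 points and passed.

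The longest 3' untranslated parts were 1438 bases in g10162 (scaffold01327, bases 265061 to 267583, plus strand), 1115 bases in g1430 (scaffold00128, bases 359533 to 364427, plus strand) and 1071 bases in g8454. Those of g3736 (scaffold00514, bases 145696 to 147368, plus strand) and g6006 (scaffold00875, bases 219463 to 221871, minus strand) followed with 950 and 943 bases. That of g10162 was not split, and that of g1430 was split by 3 introns. Model g8454, with 2 coding segments for 117 residues, was among the extremes at both ends and had 4 introns on each side of its coding sequence.

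With little coding sequence, transcripts of the members were untranslated to a large extent. Where both ends were predicted, the untranslated parts made up 49.8% of the spliced transcript in the median member and 17.8% in the median longer gene. They outran the coding sequence in 213 of 429 members (49.7%, 95% Wilson interval 44.9 to 54.4%) and in 21 of 2555 longer genes (0.822%, 0.538 to 1.25%). The 5' part measured 0.263 and the 3' part 0.601 times the coding length in the median member, against 0.0633 and 0.126 times in the median longer gene. These ratios hold the coding length of the rule in their denominator and were not tested. The members' spliced transcripts had a median of 575 bases and their gene models spanned a median of 1234 bases. Coding sequence made up 23.1% of the span in the median member and 35.0% in the median longer gene.

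A 5' end was predicted for 431 of 440 members (98.0%) and 99.7% of the longer genes, and a 3' end for 438 members (99.5%) and 2563 of 2564 longer genes. The difference at the 5' end, of -1.73 percentage points (95% interval -3.21 to -0.260), passed the test (adjusted p = 0.0432, clustered linear model, n = 440 and n = 2564). On scaffolds with an annotated span of at least 100 kb, which carried 95.9% of the members and 98.5% of the longer genes, it was 0.0792 points in the other direction and did not pass. With a term for each scaffold it was 0.106 points, also in the other direction. The call was lost against all complete genes of 360 or more coding bases (-1.48 points) and against those of 360 to under 600 (-0.425). It was also lost with members under 300 coding bases (-1.49) and at mean segment scores of at least 0.95 (-1.39), and was kept under 3 of 9 alternatives. The difference at the 3' end was -0.416 points (95% interval -1.07 to 0.236) and did not pass (adjusted p = 0.268, clustered linear model, n = 440 and n = 2564).

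More than 1 transcript was predicted for 2 members, g1105 and g2885 (0.455%, 95% Wilson interval 0.125 to 1.64%), against 45 longer genes (1.76%, 1.31 to 2.34%). The difference of -1.30 points (95% interval -2.10 to -0.497) passed the test (adjusted p = 0.00536, clustered linear model, n = 440 and n = 2564). That call was lost with members under 300 coding bases (-0.854 points), with mean segment scores of at least 0.95 (-0.905 points) and against genes of 360 to under 600 coding bases (-0.599 points).

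Pooled over both orientations, small-protein genes stood farther from their upstream neighbour than the longer genes did. The gap between gene models on the side of the 5' end had a median of 726 bases (quartiles 275 and 2885.5, n = 427) against 617 bases (255 and 1655, n = 2549). The difference of 0.25 log2 units (95% interval 0.07 to 0.44) passed the test (adjusted p = 0.0197, clustered linear model, n = 427 and n = 2549). Against genes of 360 to under 600 coding bases it was 0.24 log2 units and did not pass. The medians differed in direction between orientations, a split made after values had been seen. With an upstream neighbour on the same strand, the median gap was 1365 bases in 165 members (quartiles 454 and 3956) and 835 bases in 929 longer genes (362 and 2885). With one on the opposite strand, it was 480 bases in 262 members (quartiles 225 and 2007.5) and 515 bases in 1620 longer genes (225 and 1215). The mean differences were 0.33 log2 units on the same strand (95% interval 0.000843 to 0.66) and 0.18 on the opposite strand (-0.03 to 0.39), and neither passed the adjusted threshold. Whether the orientations differ from each other was not tested. On the side of the 3' end the median gap was 425 bases against 454, and the difference of -0.05 log2 units (95% interval -0.41 to 0.32) did not pass (adjusted p = 0.850, clustered linear model, n = 433 and n = 2536). Between starts on opposite strands, 257 of 262 gaps of members (98.1%) and 1588 of 1620 gaps of longer genes (98.0%) ended in the digit 5, so these gaps are resolved to steps of 10 bases.

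Neighbours lay on the same strand in 34.8% of 860 cases for the members (95% Wilson interval 31.7 to 38.0%) and in 36.3% of 5085 for the longer genes. The difference of -1.54 points (95% interval -4.83 to 1.76) did not pass (adjusted p = 0.401, clustered linear model, n = 860 and n = 5085 neighbours). The upstream neighbour shared the strand in 38.6% of members (95% Wilson interval 34.1 to 43.3%) and the downstream neighbour in 30.9% (26.8 to 35.5%), against 36.4% and 36.2% for the longer genes. Neither difference passed, at 2.20 points upstream (95% interval -2.12 to 6.51) and -5.21 points downstream (-10.5 to 0.0986). The sides were looked at separately after values had been seen.

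Members made up 4.28% of all gene models, and their share among neighbours was not tested. Of their 860 neighbours, 52 were members themselves (6.05%, 95% Wilson interval 4.64 to 7.84%), against 245 of 5085 neighbours of longer genes (4.82%, 4.26 to 5.44%). The members formed 26 adjacent pairs, of which 13 were divergent, 8 on the same strand and 5 convergent. Each pair counts from both sides among the 52, so the Wilson interval of the members is too narrow. The longest run had 3 members, g2328, g2329 and g2330 on scaffold00251 (bases 228838 to 243267), with 78, 103 and 107 residues and gaps of 5835 and 5375 bases between them. Among the 347 members with at least 3 coding segments, 0 pairs shared the lengths of all segments in the same order.

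Overlap with a neighbour was found for 5 members, named here after their values were seen. Models g7246 (scaffold01003, bases 1467649 to 1475362, minus strand) and g7247 (bases 1474269 to 1475362, minus strand) were both members and began at the same base. Model g7246 spanned 7714 bases, the longest span of any member. The others were g2851, g5314 and g10074, each overlapping a gene that was no member. In the longer genes, 1 of 2536 downstream and 0 of 2549 upstream neighbours overlapped.

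AUGUSTUS gave the members higher gene scores than the longer genes, with no detectable difference in segment scores. The gene score was 0.189 ± 0.168 (SD, n = 440, median 0.13) against 0.135 ± 0.124 (SD, n = 2564, median 0.1). The difference of 0.0538 (95% interval 0.0392 to 0.0684) passed the test (adjusted p = 5.89e-10, clustered linear model, n = 440 and n = 2564). At equal segment number, which allows for the members' fewer segments, it was 0.0566 (95% interval 0.0373 to 0.0759, adjusted p = 4.55e-07, clustered linear model, n = 440 and n = 1298). The difference at equal segment number was smaller but passed against genes of 360 to under 600 coding bases (0.0294, 95% interval 0.0148 to 0.0440) and against all complete genes of 360 or more (0.0362, 0.0215 to 0.0509). The mean score was 0.160 in members with 2 segments and 0.130 in longer genes with 2, 0.185 and 0.152 with 3, 0.212 and 0.133 with 4, and 0.224 and 0.127 with 5. Without regard to segment number, the difference from genes of 360 to under 600 coding bases was 0.0217 (95% interval 0.00732 to 0.0361) and passed. Both comparisons with genes of 360 to under 600 coding bases were chosen after values had been seen.

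The mean score of the coding segments was 0.937 ± 0.103 (SD, n = 440) in the members and 0.938 ± 0.0989 (SD, n = 2564) in the longer genes. The difference of -0.000535 (95% interval -0.0114 to 0.0103) did not pass (adjusted p = 0.922, clustered linear model, n = 440 and n = 2564). A segment under 0.5 was present in 28 members (6.36%), and 271 members (61.6%) had every coding segment and coding intron at 0.9 or more. In the longer genes these shares were 17.6 and 35.7%, with more segments per gene to reach them. Segment and intron scores reached 1 in the members and 2 in some longer genes, so their means cover unlike ranges. Coding introns were scored 1 in 81.1% of 1027 cases in the members and 73.6% of 19210 in the longer genes. The mean intron scores of 0.964 and 0.956 did not differ past the threshold (difference 0.00840, 95% interval -0.000884 to 0.0177, adjusted p = 0.105, clustered linear model, n = 1027 and n = 19210). Among first introns alone the difference was 0.0260 (95% interval 0.0137 to 0.0383) and passed. In genes with 1 predicted transcript the intron score difference was 0.0109 (95% interval 0.00162 to 0.0201) and passed. The segment score difference there was 0.00176, in the other direction, and did not pass. Against all complete genes of 360 or more coding bases the intron score difference was 0.0133 and passed. Against those of 360 to under 600 it was -0.00322 and did not.

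**Figure D5:**
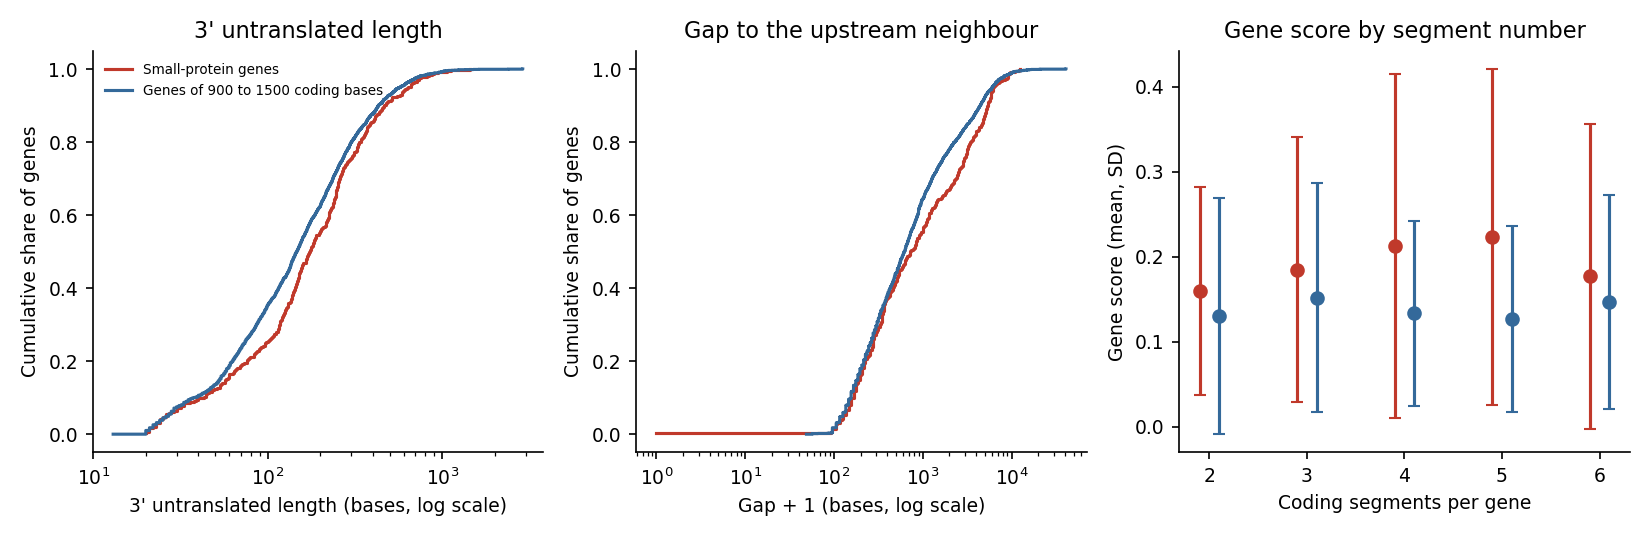
Left and middle: cumulative share of genes by 3' untranslated length and by gap to the upstream neighbour, on log axes in bases (1 base added to each gap). Small-protein genes (red) have medians of 174.5 and 726 bases and the longer genes (blue) 147 and 617. Right: mean gene score with SD bars for genes of 2 to 6 coding segments. The red means lie above the blue ones at each number, with bars that overlap.

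The members were spread over 72 of the 1231 scaffolds with gene models, and 224 of them lay on the plus strand. The most were on scaffold00366 (35 members of 691 complete genes, 5.07%), scaffold01211 (22 of 383, 5.74%) and scaffold01012 (21 of 547, 3.84%). On the 27 scaffolds with at least 100 complete genes, their share ran from 1.71% to 6.36% with a median of 4.69%. The extremes among these 27 were scaffold01279 with 2 of 117 complete genes (95% Wilson interval 0.470 to 6.02%) and scaffold00704 with 7 of 110 (3.12 to 12.6%). These intervals overlap. On scaffolds with fewer complete genes the share varied more. Examples are 13.4% on scaffold00852 (9 of 67), 13.3% on scaffold00251 (6 of 45) and 1.43% on scaffold01210 (1 of 70). The share reached 100% on scaffolds with very few complete genes, such as scaffold00044 (2 of 2) and scaffold00119 (1 of 1). These shares rest on few genes and were not tested.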

How the data were processed

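The file analysed holds gene models of the whole series, whose lines name AUGUSTUS as their source, per the file's source column. For AUGUSTUS, its version, settings and evidence, and for the assembly its version, are not stated in the labels or the file. The score of each gene, transcript, coding segment and intron line was used as deposited by the authors, with no definition given. Coordinates count from 1. Per the submitters' processing notes, reads were handled with TopHat 1.3.3 and Cufflinks.

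Models were read with Python 3.11.15, NumPy 2.4.6 and SciPy 1.17.1, and plotted with Matplotlib 3.10.9. For each gene the transcript with the greatest summed coding length was used. Untranslated lengths were spliced lengths in genes with a predicted transcript end. Untranslated lengths and gaps were analysed as log2(bases + 1), coding introns as log2(bases), and overlaps were set to a gap of 0. An untranslated intron was counted per wholly untranslated exon.

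Each of 18 comparisons was a linear model of the value on class, two-sided, with standard errors clustered by scaffold and Benjamini-Hochberg adjustment over the 18 (threshold 0.05), and for alternatives over the 18 with the alternative's values in place. These p-values reflect only how genes vary between scaffolds of 1 annotation. The code was tested on simulated data. Named genes were the 5 members each with the shortest coding sequence, most coding introns, longest coding intron and longest 5' and 3' untranslated parts, the 3 nearest the limit on either side, the longest run of neighbours, with ties broken by file order, and pairs of equal segment lengths. The members and lists were chosen with earlier results of these data known. No genome sequence was used here, so no sequences are shown.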

Additional observations from a re-analysis of the deposited data

How the results depend on the processing

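Under 11 listed alternatives and 6 chosen after seeing the data, 176 values were computed, of which 144 kept their direction and side of the threshold, 15 lost their call, 4 gained one and 13 turned direction. The cause of these changes was not tested. Chosen later were genes of 360 to under 600 coding bases as reference and first introns of genes without a 5' untranslated intron. Single neighbour sides and single neighbour orientations were also chosen later. Of the 9 called results, intron density and both gene score comparisons kept their call under all 9 alternatives each, and the 5' untranslated intron share under 8 of 9. Coding length stayed in the denominator of intron density under each alternative. With scaffolds of at least 100 kb, the share with a predicted 5' end was 0.0792 points and the segment score difference 2.94e-05. A term for each scaffold put the former at 0.106. Against all complete genes of 360 or more coding bases, the 5' end share was -1.48, the segment score difference 6.51e-05 and the intron score difference 0.0133 (now called). With members under 300 coding bases, the 5' end share was -1.49, the 3' end share 0.0390, the 3' untranslated length 0.21 log2 units and the share with more than 1 transcript -0.854. At mean segment scores of at least 0.95 the 5' end share was -1.39, the 5' untranslated length -0.016, the 3' untranslated length 0.15, the share with more than 1 transcript -0.905 and the intron position -0.0215. Without scaffold00366, the 3' untranslated intron share was 2.73 points (now called). In genes with 1 transcript, the segment score difference was 0.00176 and the intron score difference 0.0109 (now called). With first introns only, intron length was 0.15 and intron score 0.0260 (both called), and in genes without a 5' untranslated intron first-intron length was 0.17 log2 units. Between coding sequences, the downstream gap was 0.028 log2 units. With neighbours on the same strand only, the upstream gap was 0.33, and on the opposite strand only the upstream gap was 0.18 and the downstream gap 0.16 log2 units. Against genes of 360 to under 600 coding bases, the 5' end share was -0.425, the 5' untranslated intron share 5.98, the upstream gap 0.24, the intron score -0.00322, the share with more than 1 transcript -0.599 and the intron position -0.0165. With upstream neighbours only, the same-strand share was 2.20 points. Genes with 1 transcript gave no value for the share with more than 1, and leaving out longer genes without an intron removed 11 of 2564. No paired analysis was possible because no value of the file belongs to a library.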

Other observations

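Beside the 440 members, the annotation held other short models that the rule left out. The 31 complete genes under 360 coding bases with no coding intron had a median coding length of 294 bases and a median gene score of 0.12, against 297 bases and 0.13 in the members. Of the 30 with a predicted 5' end, 16 (53.3%) had an intron ahead of the start codon, so those transcripts were spliced although their coding sequence was not. On scaffolds with a span of at least 100 kb lay 25 of the 31.

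Short models without a start or a stop codon numbered 238, and 212 of these had at least 2 coding segments. Of the 238, 9 (3.78%) lay on scaffolds with a span of at least 100 kb, against 422 of the 440 members (95.9%), and 29.0% were the only gene of their scaffold. Their median gene score was 0.33 and their mean segment score 0.921, against 0.13 and 0.937 in the members. These values were not tested.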
